A study of Mus musculus with 119 samples.

Results

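The choroid plexus genes described here are Ttr, Kl, Folr1, Clic6, Aqp1, Kcnj13, Otx2, Enpp2, Prlr and Sostdc1, which were taken by name as 10 of the 55291 gene symbols counted in 119 brain libraries. Messenger RNA was sequenced from the amygdala (Amy), the dorsal medial striatum (DMS), the nucleus accumbens (NAc), the ventral tegmental area (VTA) and the prefrontal cortex (PFC) of mice given daily intraperitoneal THC, the main psychoactive compound of cannabis, or vehicle in adolescence, and the question here was which punches carried choroid plexus RNA and whether these genes moved together. Each library came from a punch of 1 region of 1 mouse. Every region held female vehicle, female THC, male vehicle and male THC groups of 6 libraries, except that the male vehicle VTA group held 5. THC was injected at 10 mg/kg on each of the 21 days from postnatal day 28 to 48, and vehicle was ethanol, Tween and saline. All mice then went without injection until behavioural testing from postnatal day 63. The labels give the strain as C57BL/6J and the age as 11 weeks while the study's methods name the substrain C57BL/6NCrl. A tissue label of the DMS libraries reads dorsolateral striatum. The labels do not say which libraries of different regions came from the same mouse.

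The choroid plexus is a vascular tuft in the brain ventricles whose epithelial cells secrete cerebrospinal fluid. Its epithelium makes Ttr, the transthyretin that carries thyroid hormone, at such high levels that a small amount of the tissue can be seen in a bulk library, and several of the other genes listed here are also transcribed in neurons, glia or the ciliated ependymal cells that line the ventricles. The members that are secreted or act outside the cell are Ttr, Enpp2 (autotaxin, which makes lysophosphatidic acid) and Sostdc1 (an inhibitor of BMP and Wnt ligands). Kl (Klotho, the coreceptor of FGF23), Folr1 (the folate receptor of the plexus) and Prlr (the prolactin receptor) are surface receptors or coreceptors. Aqp1 is a water channel, Kcnj13 a potassium channel and Clic6 a chloride channel protein, and Otx2 is the homeodomain transcription factor that plexus epithelium needs to form.

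Positions are those of GENCODE M21 on the mouse assembly GRCm38. Kcnj13 is at 87386363 to 87394729 of chromosome 1, Kl at 150952607 to 150993817 of chromosome 5, Aqp1 at 55336432 to 55348555 of chromosome 6 and Folr1 at 101858331 to 101870788 of chromosome 7. Sostdc1 is at 36314139 to 36318452 of chromosome 12, Otx2 at 48657677 to 48673819 of chromosome 14 and Clic6 at 92485736 to 92541243 of chromosome 16. Enpp2, at 54838901 to 54952892, and Prlr, at 10177238 to 10349180, share chromosome 15. All 10 members are protein-coding.

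The RefSeq promoter table of GRCm38.p6 held 10 starts of 5 members, those of Kcnj13, Kl, Aqp1, Otx2 and Prlr. The sequences of Kcnj13, Kl and Aqp1 and of 1 of the 4 Otx2 starts are shown because these genes stood high together in the same Amy libraries, and this Otx2 start because it is the 1 of the 10 windows that holds TAATCC. Each is the 250 bases before the start, 5′ to 3′ on the strand of the gene, and capitals mark either TATAAA, the TATA box, or TAATCC, the core letters bound by Otx proteins, on either strand (the TAATCC match of Otx2 reads GGATTA on the strand printed). The spans are chr1:87394730-87394979 on the minus strand for Kcnj13, chr5:150952357-150952606 on the plus strand for Kl, chr6:55336049-55336298 on the plus strand for Aqp1 and chr14:48665110-48665359 on the minus strand for Otx2.
Kcnj13: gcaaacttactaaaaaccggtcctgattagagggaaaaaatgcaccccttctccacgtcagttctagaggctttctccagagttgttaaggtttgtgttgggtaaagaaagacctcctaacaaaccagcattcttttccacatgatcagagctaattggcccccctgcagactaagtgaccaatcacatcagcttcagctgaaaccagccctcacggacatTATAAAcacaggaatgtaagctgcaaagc
Kl: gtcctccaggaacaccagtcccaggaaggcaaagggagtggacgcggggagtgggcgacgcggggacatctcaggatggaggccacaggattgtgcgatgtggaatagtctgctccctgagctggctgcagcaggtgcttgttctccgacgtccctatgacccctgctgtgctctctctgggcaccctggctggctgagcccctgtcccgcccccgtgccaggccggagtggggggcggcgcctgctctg
Aqp1: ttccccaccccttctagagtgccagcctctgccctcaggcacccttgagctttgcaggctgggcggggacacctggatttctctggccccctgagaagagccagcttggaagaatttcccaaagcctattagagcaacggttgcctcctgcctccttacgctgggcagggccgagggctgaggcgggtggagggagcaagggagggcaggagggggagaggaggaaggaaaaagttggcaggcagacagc
Otx2: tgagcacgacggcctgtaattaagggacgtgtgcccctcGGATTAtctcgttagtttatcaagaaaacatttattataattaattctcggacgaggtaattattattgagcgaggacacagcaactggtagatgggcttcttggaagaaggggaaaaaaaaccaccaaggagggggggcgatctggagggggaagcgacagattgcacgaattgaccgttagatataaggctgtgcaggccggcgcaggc
Kcnj13 held 1 TATAAA that began 29 bases before its start. This Otx2 window held 1 TAATCC match 211 bases before the start, and Kl and Aqp1 held neither motif. Of the 10 windows, 1 held TAATCC, 2 held TATAAA (that of Kcnj13 and another Otx2 start, 192 bases before it) and 7 held neither. Of 32851 mouse promoter windows of the same 250 bases, 12.4% held TATAAA and 6.25% held TAATCC on either strand, so such a match is common, and it does not show that a factor binds there. The windows were 45.2% G or C in Kcnj13, 66.8% in Kl, 62.0% in Aqp1 and 48.4% in this Otx2 window. Ttr, Folr1, Clic6, Enpp2 and Sostdc1 are named only.

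Total counts ran from 3090978 to 77042124 per library. In CPM, that is counts scaled to the size of each library, Xist was at 0.292 and the Y-linked genes at 139 in FTL_344, an Amy THC library labelled female. Xist was at 489 and the Y-linked genes at 0.371 in FTL_356, an Amy THC library labelled male. These levels go against both labels. Both are among the libraries with the most Ttr, and males against females and the interaction in the Amy are given with and without them. Values below are CPM scaled by TMM over all 119 libraries, and a level is also given as log2 CPM with a prior count of 2.

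Ttr stood apart in 6 Amy libraries and 1 DMS library and was at or near 0 elsewhere. In the Amy it was at 397, 802 and 1073 CPM in female vehicle libraries FTL_337, FTL_335 and FTL_338, at 1998 and 3201 CPM in the libraries labelled female THC FTL_344 and FTL_343, and at 403 CPM in the library labelled male THC FTL_356. The other 18 Amy libraries had between 0 and 8.51 CPM with a median of 0.0529, and no value lay between 8.51 and 397 CPM. In the female vehicle Amy group the remaining 3 libraries had 0, 0 and 1.02 CPM, and in the female THC group the remaining 4 had between 0 and 0.261 CPM. The 6 male vehicle Amy libraries had at most 0.181 CPM. The male THC Amy libraries FTL_355 and FTL_354 had 8.51 and 2.81 CPM, the next highest of the region, and the other 3 had at most 0.327 CPM. Both sexes as labelled and both treatments were among the 6. Their depth was 13840303 to 40709750 counts, within the 8713177 to 76111333 counts of the 24 Amy libraries. A bulk library cannot tell fewer cells of a type from less RNA per cell.

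Female vehicle FTL_285 was the DMS library that stood apart, with 56.9 CPM of Ttr from a count of 1381, and the other 23 DMS libraries had at most 0.639 CPM. Counts of Ttr were 0 in 20 of 24 PFC, 13 of 24 DMS, 11 of 24 NAc, 8 of 24 Amy and 2 of 23 VTA libraries. A count of 0 allows up to 3 counts, or 0.0394 to 0.310 CPM at the depth of these libraries, and this limit covers counting error only. The highest values were 0.137 CPM in the PFC, 0.266 CPM in the NAc and 2.83 CPM in the VTA, the last in male THC library FTL_374. In the VTA Ttr had a median of 0.253 CPM and 21 of 23 libraries above 0.

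**Figure D1:**
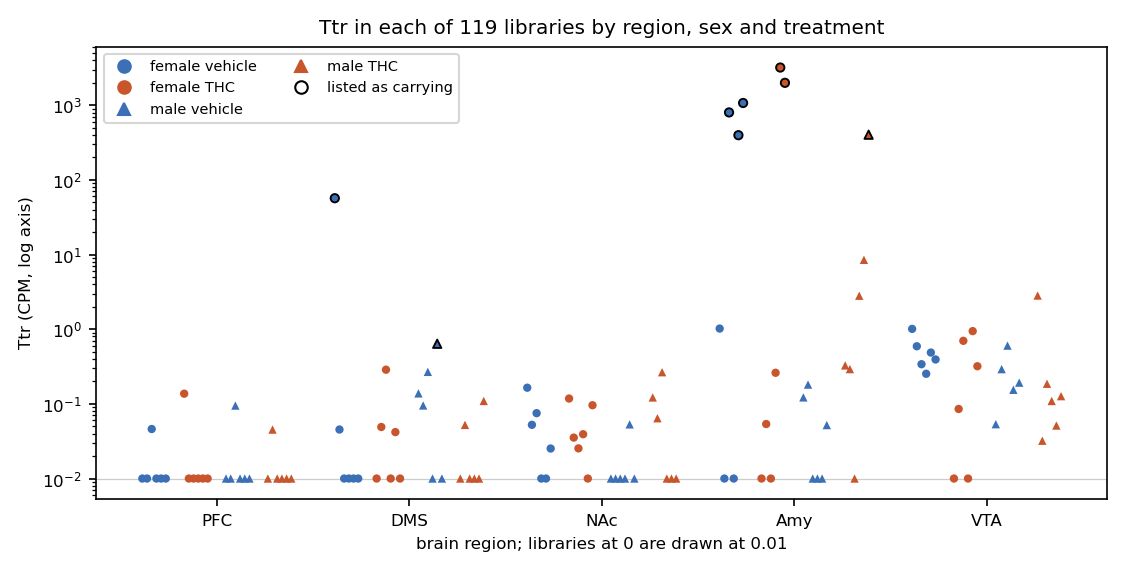
Ttr in CPM on a log axis for each of the 119 libraries, by region, with circles for females and triangles for males as labelled, blue for vehicle and orange for THC, black rings for the 8 libraries listed as carrying choroid plexus RNA, and libraries at 0 drawn at 0.01. The 6 ringed Amy libraries sit between 397 and 3201 CPM and ringed DMS libraries at 56.9 and 0.639 CPM, while the other points stay at or under 8.51 CPM.

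A member was counted as raised where its log2 CPM was at least 2, that is 4-fold, above the median of its region, and a library was listed as carrying choroid plexus RNA where at least 5 of the 10 members were raised. This listing is a description by the members' own values. It took in 8 of the 119 libraries, the 6 Amy libraries above and the DMS libraries FTL_285 and FTL_301. By group these were 3 of 6 female vehicle, 2 of 6 female THC, 0 of 6 male vehicle and 1 of 6 male THC Amy libraries, and 1 of 6 female vehicle and 1 of 6 male vehicle DMS libraries. No library of the PFC, NAc or VTA was listed, and there no library had more than 1 member raised. The rule sets a library against its own region, so it cannot list RNA that most libraries of a region share. In the VTA the median of Ttr was 0.253 CPM, with a count of 0 in 2 of 23 libraries. Just inside the listing were the 5 libraries with 5 members raised (FTL_301, FTL_335, FTL_337, FTL_338 and FTL_356), and just outside it was male vehicle DMS FTL_297 with 3.

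In FTL_343 and FTL_344, 9 of the 10 members were raised, all but Prlr, where 0.823% and 0.539% of the 17615 genes tested were raised. The same 5 members, Ttr, Folr1, Aqp1, Kcnj13 and Otx2, were raised in FTL_335, FTL_337, FTL_338 and FTL_356, where 0.278%, 0.153%, 0.324% and 0.392% of genes were. FTL_285 had Ttr, Folr1, Aqp1, Kcnj13, Prlr and Sostdc1 raised against 0.965% of genes. FTL_301 had Ttr, Folr1, Otx2, Prlr and Sostdc1 raised against 1.45% of genes. Its Ttr was 0.639 CPM from a count of 12, its Kcnj13 was a count of 1 and its Aqp1 a count of 5, so FTL_301 is unlike the other 7 and is described with the DMS below.

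Among secreted members in the Amy, Enpp2 was at 269.3, 296.01, 436, 571, 1259 and 1960.4 CPM in FTL_356, FTL_337, FTL_338, FTL_335, FTL_344 and FTL_343, against 93.9 to 214 CPM in the other 18. Sostdc1 was at 5.71, 5.21, 8.82, 8.08, 16.3 and 25.4 CPM in the same order, against 1.83 to 3.93 CPM. The listed and other libraries did not overlap for either gene, as for 0.335% of the 17615 genes tested, and the split was made by these genes' own levels. Neither gene was near 0 in the other libraries.

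Of the receptors, Folr1 was at 7.49, 4.90, 13.0, 8.14, 22.5 and 36.2 CPM in that order, while the other 18 had 0 to 0.337 CPM and 8 of them a count of 0. Kl was at 37.3, 24.2, 27.9, 37.4, 104 and 169 CPM against 7.67 to 12.8 CPM. Prlr was at 33.5, 43.2, 35.8, 50.4, 65.1 and 98.3 CPM against 12.2 to 37.9 CPM, and is the member whose listed and other Amy libraries overlapped.

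Of the channels, Kcnj13 was at 4.82, 4.59, 7.22, 7.36, 20.2 and 31.7 CPM and had a count of 0 in 16 of the other 18 Amy libraries, the highest of which had 0.0877 CPM. Aqp1 was at 5.34, 4.05, 7.19, 7.36, 21.2 and 29.5 CPM against 0.0757 to 0.519 CPM. Clic6 was at 22.3, 21.8, 26.6, 30.8, 75.9 and 115 CPM against 7.30 to 17.5 CPM. The transcription factor Otx2 was at 1.86, 2.20, 4.38, 4.90, 13.9 and 18.2 CPM against 0 to 0.526 CPM. FTL_343 was highest and FTL_344 next for every member, and Ttr made up 49.5% to 65.4% of the summed CPM of the 10 members in these 6 libraries.

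**Figure D2:**
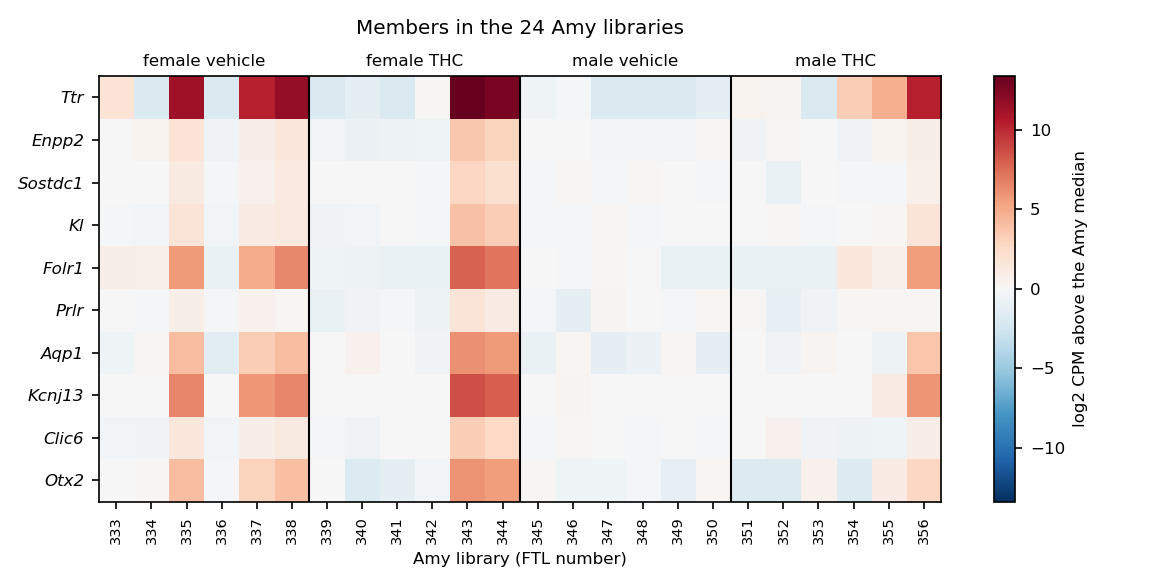
The 10 members (rows) in the 24 Amy libraries (columns, by FTL number and labelled group), coloured by log2 CPM above the Amy median. The columns of FTL_335, FTL_337, FTL_338, FTL_343, FTL_344 and FTL_356 are darkest for Ttr, Folr1, Aqp1, Kcnj13 and Otx2, paler for Kl, Enpp2, Clic6 and Sostdc1 and palest for Prlr. Those of FTL_343 and FTL_344 are deepest, and Ttr is also red in FTL_354 and FTL_355.

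Set against Ttr, most members kept a narrow ratio over the 6 Amy libraries. The excess of a member over the median of the other 18 libraries was 1.01 to 1.85 CPM of Folr1, 0.673 to 1.20 CPM of Kcnj13, 0.646 to 1.26 CPM of Aqp1, 0.395 to 0.687 CPM of Otx2 and 0.465 to 0.688 CPM of Sostdc1 per 100 CPM of Ttr. The highest was 1.48 times the lowest for Sostdc1 and 1.95 times for Aqp1. The excess was 29.1 to 57.4 CPM for Enpp2 and 1.54 to 3.30 CPM for Clic6. The ratio was least even for Kl (1.66 to 6.77 CPM) and Prlr (0.902 to 4.30 CPM), whose highest was 4.07 and 4.77 times their lowest.

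Within these 6 libraries, the Pearson correlation with Ttr in log2 CPM ran from 0.85 for Prlr to 0.99 for Sostdc1. It was 0.97 for Folr1 (exact permutation test, p = 0.00139, adjusted p = 0.0125 over 18 relations; Spearman's rho = 1, p = 0.00278, adjusted p = 0.025), and 0.93 without FTL_343 and FTL_337, the libraries farthest from the median of Ttr. By the same exact test Kl, at r = 0.87 (adjusted p = 0.0525), and Prlr (adjusted p = 0.0545) missed the threshold, and Aqp1, Kcnj13, Clic6, Otx2, Enpp2 and Sostdc1 had r of 0.94 to 0.99 with adjusted p of 0.0125 to 0.0143. Spearman's rho was 0.71 to 1 with adjusted p of 0.025 to 0.239, and under 0.05 for Folr1 and Sostdc1. Without FTL_343 and FTL_337, r stayed between 0.66 for Kl and 0.97 for Sostdc1. The 6 libraries were listed by these genes' own levels, and a correlation over all 24 is not given because they fall into separate clusters.

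In the other 18 Amy libraries, Kcnj13 had r = 0.65 with Ttr and Folr1 had r = 0.58 (permutation test, adjusted p = 0.0447 and 0.0259). Without FTL_355 and FTL_354 these r were 0.17 and 0.18, so they rest on those libraries. FTL_355 had 8.51 CPM of Ttr with 0.526 CPM of Otx2 and 0.0877 CPM of Kcnj13, the highest of both among the 18.

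**Figure D3:**
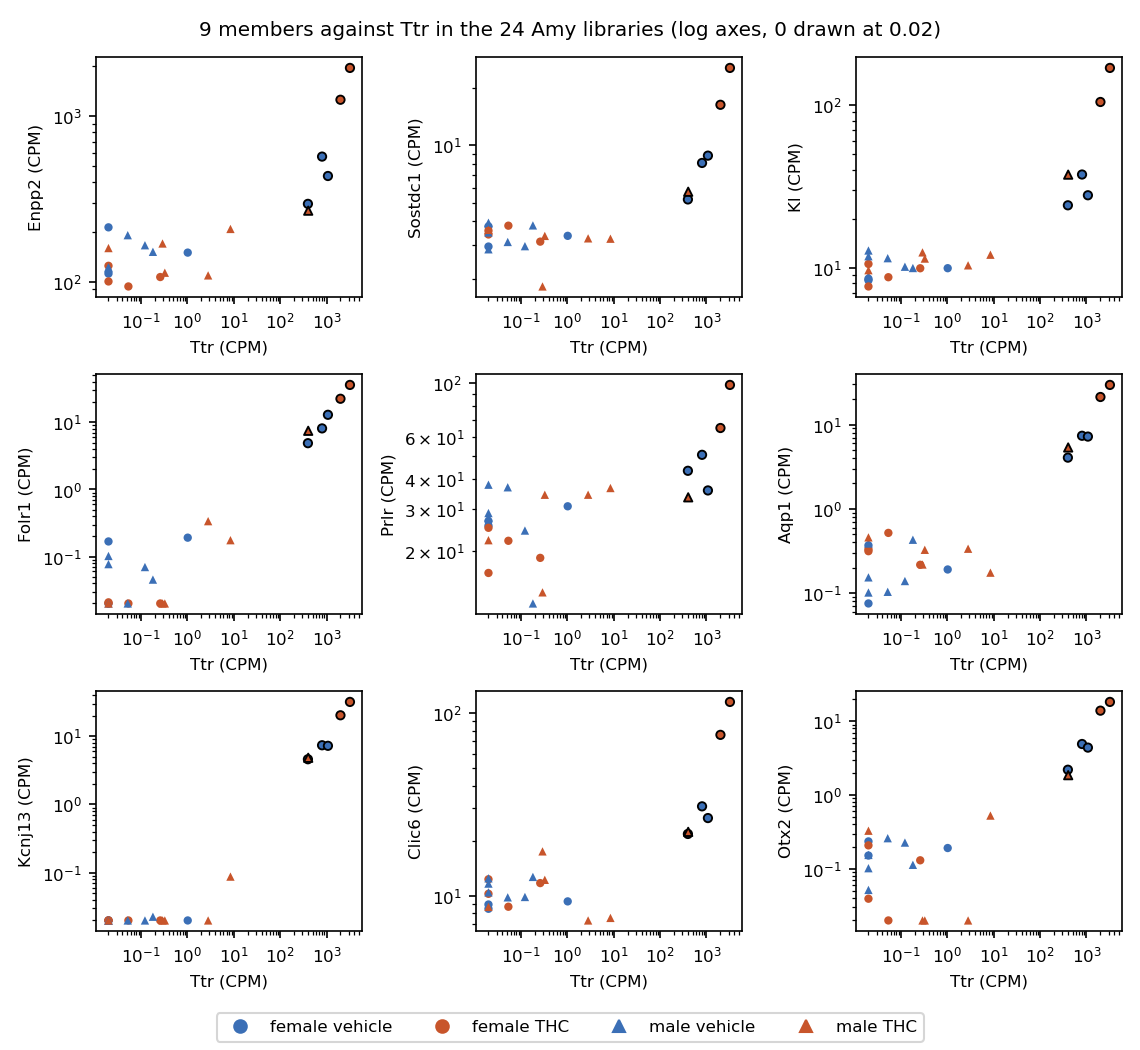
CPM of the other 9 members against CPM of Ttr in the 24 Amy libraries, both axes logarithmic with 0 drawn at 0.02, groups by colour and shape, listed libraries ringed in black. The ringed libraries lie at 397 to 3201 CPM of Ttr and are highest at its upper end, while the unringed libraries stay near 0 for Kcnj13, under 0.337 CPM or at it for Folr1 and at 12.2 to 37.9 CPM for Prlr.

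Plexus genes outside the 10 members also stood high in these libraries. Of 25 further genes known from choroid plexus epithelium, 12 to 23 were raised in the 6 Amy libraries and 22 to 25 were higher than in every one of the other 18, as 4.53% to 21.4% of all genes tested were, and their summed level was 218 to 973 CPM against 91.8 to 127 CPM. FTL_285 had 9 of the 25 raised, with a summed level of 180 CPM against 115 to 152 CPM in the DMS libraries that were not listed. The list was chosen with results of these data in view and adds no independent evidence.

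Genes past the filter on low counts, and the members, were ranked by their correlation with Ttr over the 119 libraries after subtraction of the region median. Kcnj13 was first of 17616 genes (r = 0.86). Kcnj13 did not pass the filter and was ranked only as a member, and other genes under the filter, such as the plexus gene Kcne2, have no rank. Folr1 was at rank 4 (r = 0.82), Kl at 8 (0.79), Otx2 at 9 (0.79), Aqp1 at 10 (0.79), Enpp2 at 11 (0.77), Clic6 at 29 (0.65) and Sostdc1 at 165 (0.42), and Prlr had r = 0.35. The 10 genes ranked highest that are no members were Slc4a5 (r = 0.84), Cldn2 (0.84), Mfrp (0.81), F5 (0.80), Lmx1a (0.80), Msx1 (0.76), Igfbp2 (0.75), Slc2a12 (0.74), Trpv4 (0.74) and Tmem72 (0.73). Of these, Slc4a5 (a bicarbonate transporter), Cldn2 (a tight junction claudin), F5 (coagulation factor V), Lmx1a and Msx1 (homeodomain factors), Igfbp2, Trpv4 (a cation channel) and Tmem72 are on the list of further plexus genes, and Mfrp and Slc2a12 are on none. Mfrp was at 5.17 to 53.3 CPM in the 6 Amy libraries and at most 0.833 CPM in the other 18, and Slc2a12 at 5.27 to 27.7 CPM against at most 4.21 CPM. Over 0.7 there were 20 genes, 6 of them members. These ranks are a description, and they were not recomputed without the listed libraries.

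Markers of other cells were counted in the same libraries. Of 10 ependymal genes, 0 to 4 were raised in the 6 Amy libraries, 0 in FTL_285 and 10 in FTL_301. Among libraries not listed, up to 8 were raised in the DMS and 0 in the Amy. In FTL_285 the median of the 10 genes was 1.48 in log2 CPM above the region median. The summed level of the 10 genes was 72.0, 51.1 and 47.4 CPM in FTL_343, FTL_338 and FTL_344, above the 13.1 to 38.9 CPM of the other 18 Amy libraries, and 26.8 to 38.4 CPM in the other 3 listed. Of 10 genes each, leptomeningeal fibroblasts had 0 or 1, hypothalamic and preoptic neurons 0 or 1, brain endothelium 0 and oligodendrocytes 0 raised in the 6 Amy libraries. Dopaminergic neuron genes had 0 raised in them and 2 in each listed DMS library, with at most 1 in a DMS library not listed. In FTL_356 and FTL_337 the summed oligodendrocyte level, at 1856 and 2477 CPM, was under the 2697 to 7978 CPM of the other Amy libraries. How choroid plexus RNA came into these punches was not tested.

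Several members had regional levels of their own in libraries with almost no Ttr. Clic6 was at 18.8 to 35.4 CPM in the NAc and 11.0 to 19.0 CPM in the DMS libraries not listed, against 7.30 to 17.5 CPM in the Amy libraries not listed, and at 0.181 to 0.627 CPM in the PFC. Kl was at 9.73 to 16.3 CPM in the NAc, where Ttr had at most 0.266 CPM, close to the 7.67 to 12.8 CPM of the Amy libraries not listed, and at 1.04 to 2.47 CPM in the PFC. Otx2 was at 4.61 to 8.48 CPM in every VTA library and 1.03 to 3.82 CPM in every NAc library, and at 0 in 20 of 24 PFC libraries with at most 0.0495 CPM.

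Prlr had a median of 29.8 CPM for the Amy, 10.2 for the VTA, 4.64 for the NAc, 0.488 for the DMS and 0.478 for the PFC. Sostdc1 had medians of 3.54 CPM in the Amy, 0.714 in the VTA, 0.573 in the NAc, 0.259 in the PFC and 0.143 in the DMS. Enpp2, which oligodendrocytes also express, had medians of 411 CPM for the VTA, 198 for the PFC, 177 for the DMS, 156 for the Amy and 121 for the NAc. In that order of medians, the DMS and PFC were not shown to differ for Sostdc1 or Enpp2, nor the VTA and NAc for Sostdc1 (edgeR's quasi-likelihood test, adjusted p = 0.844, 0.481 and 0.33). By the same test, and against that order, Enpp2 was called higher in the Amy than in the PFC (log2 fold change 0.55, adjusted p = 0.00527). Over the DMS its log2 fold change was 0.68 (adjusted p = 0.000481), also called. Both turned without the listed libraries, as given below. Without the listed libraries, which were chosen by these genes' own levels, Sostdc1 was called lower in the DMS than in the PFC (log2 fold change -0.73, adjusted p = 0.0166, same test). Folr1, Kcnj13 and Aqp1 stayed at or under 2.37 CPM outside the Amy, with Aqp1 at most 2.15 CPM in the PFC and Kcnj13 at most 2.37 CPM in the VTA.

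**Figure D4:**
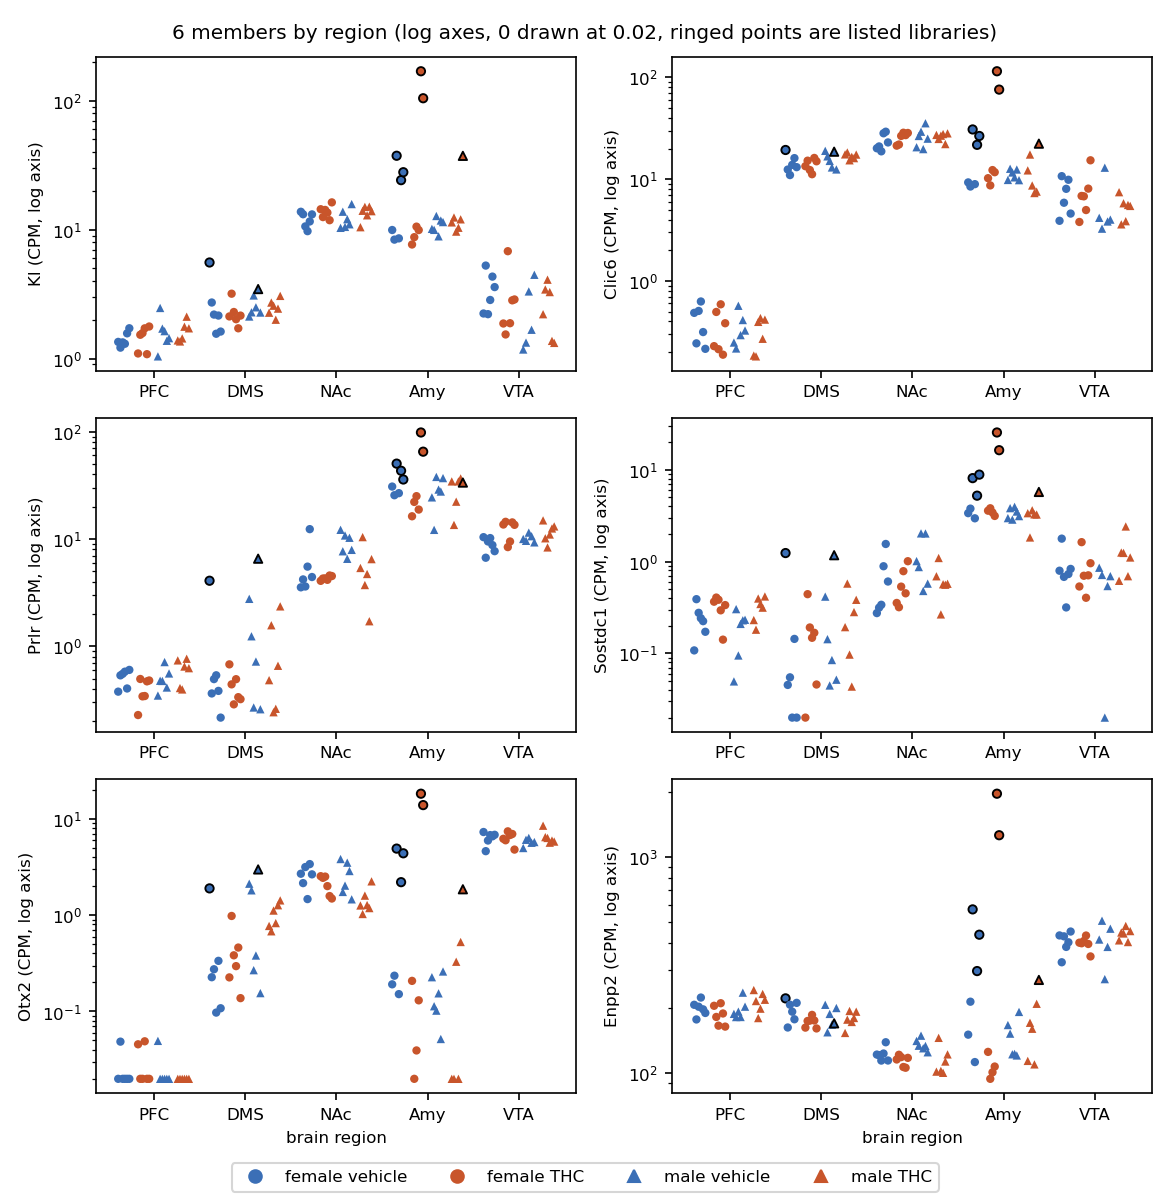
CPM on log axes of Kl, Clic6, Prlr, Sostdc1, Otx2 and Enpp2 in the 119 libraries by region, groups by colour and shape, listed libraries ringed in black and 0 drawn at 0.02. Unringed NAc libraries hold Kl at 9.73 to 16.3 CPM and Clic6 at 18.8 to 35.4 CPM, all VTA libraries hold Otx2 at 4.61 to 8.48 CPM, and ringed Amy libraries reach 169 CPM of Kl and 1960.4 CPM of Enpp2.

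Differences between regions were tested in 1 edgeR fit over the 119 libraries, with genes called DEGs at a false discovery rate under 0.05 and an absolute log2 fold change (logFC) of at least 0.4. By the study's methods the regions of a mouse were sequenced as separate libraries, so libraries of different regions share mice. The fit treats them as independent, and its SE and p take no account of the shared mice. Ttr and Kcnj13 did not pass the filter on low counts, and the other 8 members were tested. With no filter both were called higher in the Amy, at logFC of 14.03 and 4.11 over the PFC, 12.66 and 6.26 over the NAc and 6.53 and 5.53 over the DMS, and both were lower in the VTA than in the Amy, at -9.31 and -2.12. Fitted values against regions near 0 depend on the prior count. Both genes were high in the listed Amy libraries, and neither was tested without the listed libraries. In the 18 Amy libraries not listed the median was 0.0529 CPM for Ttr and 0 for Kcnj13. The medians of the VTA were 0.253 and 0.295 CPM, and those of the PFC 0 and 0.0894 CPM. In the Amy, 8 were higher than in the PFC, where 37.1% of all 17615 genes tested were called, 7 were higher than in the DMS (44.5% of genes), 6 were higher and Clic6 lower than in the NAc (27.2%), and 6 were higher and Otx2 and Enpp2 lower than in the VTA (45.5%). The VTA against the PFC (56.1% of genes called) gave 6 members higher, against the DMS (58.4%) 4 higher and Clic6 lower, and against the NAc (54.1%) 3 higher and Kl and Clic6 lower. NAc against PFC (46.6%) gave 5 higher and Enpp2 lower, NAc against DMS (32.8%) gave 5 higher and Folr1 and Enpp2 lower, and DMS against PFC (50.7%) gave 5 higher.

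Prlr and Sostdc1 were higher in the Amy with and without the listed libraries. The logFC of Prlr was 6.06 (SE 0.25) over the PFC and 4.98 (SE 0.23) over the DMS, and without the 8 listed libraries it was 5.66 and 5.21. That of Sostdc1 over the DMS was 4.38 (SE 0.29) and without them 4.35. Other directions turned when the 8 were left out. The 8 were chosen by levels of these same genes, 6 of them in the Amy, so a lower value for the Amy follows from the choice and is given as a description. Aqp1 in the VTA against the Amy went from -2.68 (SE 0.43) to 0.41, which was not called. Otx2 went from 1.13 (SE 0.42, adjusted p = 0.0105) to -2.17 and Enpp2 from 0.68 (SE 0.18, adjusted p = 0.000481) to -0.37 in the Amy against the DMS, Aqp1 from 2.38 (SE 0.42) to -0.72 and Enpp2 from 0.55 (SE 0.18, adjusted p = 0.00527) to -0.51 against the PFC, and Kl from 0.79 (SE 0.21, adjusted p = 0.000397) to -0.34 and Aqp1 from 2.76 (SE 0.43) to -0.39 against the NAc. Of these 7, Otx2 against the DMS and Aqp1 and Enpp2 against the PFC were called in the turned direction and the other 4 were not called. Among those 4, Enpp2 against the DMS (adjusted p = 1.46e-07) and Kl against the NAc (adjusted p = 0.00306) missed only the threshold of 0.4 on the logFC. Clic6, not called for the Amy against the DMS with all libraries (0.31, SE 0.18), was called lower at -0.49 (adjusted p = 2.01e-05), and Otx2 for the Amy against the NAc went from -0.25 (SE 0.37) to -3.92 and was called lower. The members called in the Amy then numbered 7 against the PFC (36.2% of genes), 5 against the DMS (44.6%), 4 against the NAc (26.2%) and 6 against the VTA (45.7%), of 7 tested. Folr1, called higher in the Amy than in every other region with all libraries, did not pass the filter in this fit and was not tested. Its calls between regions thus rest on the listed libraries. Its median was 0.0193 CPM in the 18 Amy libraries not listed. Over all libraries of the other regions it was 0.0557 in the NAc, 0.0879 in the PFC, 0.154 in the VTA and 0.236 in the DMS. Prlr, called higher in the DMS than in the PFC (logFC 1.08, SE 0.35), was at 0.46 (adjusted p = 0.114) without the 8 listed libraries and not called. Sostdc1 (-0.73, adjusted p = 0.0166) and Aqp1 (-0.96, adjusted p = 0.000396) were called for the DMS against the PFC only without them. The same held for Aqp1 in the NAc against the DMS (0.64, adjusted p = 0.0238). PFC and DMS libraries were deposited in a separate table from those of NAc, Amy and VTA, so for pairs across the tables region and table cannot be told apart.

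No member was called for THC against vehicle in any region and sex. The 10 comparisons tested 3 to 8 members each, 55 tests in all, with 0 called by edgeR and 0 by DESeq2, while 7 of the 55 (12.7%) had an unadjusted p under 0.05, as did 1.84% to 21.9% of all genes in these comparisons. Of all genes, 1.57% were called in the female Amy, 0.0127% in the female DMS and 0% in the other 8 comparisons. In the female Amy, the mean of Ttr was 866 ± 1395 CPM in the THC group against 378.9 ± 467 CPM in the vehicle group (SD, n = 6 each), and its logFC was 1.18 (SE 2.45, adjusted p = 0.806). Kl averaged 51.7 ± 68.9 CPM with THC and 19.4 ± 12.2 CPM with vehicle (logFC 1.39, SE 0.89, adjusted p = 0.373), a difference smaller than the spread of the THC group. Clic6, Aqp1, Enpp2, Prlr and Sostdc1 had logFC of 0.19 to 1.39 with adjusted p of 0.392 to 0.83, and the groups overlapped for all 7 members tested. Folr1, Kcnj13 and Otx2 did not pass the filter there. Without FTL_344, whose sex genes go against its label, 0 of 7 were called, with adjusted p of 0.556 to 0.999. Without the 5 listed Amy libraries labelled female, which leaves 3 vehicle and 4 THC libraries, 0 of 6 members tested were called where 1.95% of genes were, and the logFC was 0.03 (SE 0.12) for Kl, 0.26 (SE 0.12, adjusted p = 0.23) for Clic6, -0.58 (SE 0.23, adjusted p = 0.241) for Enpp2 and -0.43 (SE 0.14, adjusted p = 0.132) for Prlr.

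In the male Amy the 5 members tested had logFC of 0.06 to 0.53 with the library labelled male FTL_356 and -0.14 to 0.07 without it, and none was called either way. In the male NAc, where no library was listed, Otx2 averaged 1.43 ± 0.439 CPM with THC and 2.57 ± 0.974 CPM with vehicle (logFC -0.83, SE 0.26), Prlr 5.40 ± 2.94 against 9.22 ± 2.17 CPM (-0.80, SE 0.33), Sostdc1 0.624 ± 0.269 against 1.16 ± 0.692 CPM (-0.90, SE 0.38) and Enpp2 114 ± 17.5 against 135 ± 8.45 CPM (-0.25, SE 0.08), all SD with n = 6. Their unadjusted p were 0.00525 to 0.0316, where 16.7% of all genes had one under 0.05, and their adjusted p 0.21 to 0.26 in edgeR's quasi-likelihood test, and the groups overlapped for each gene. Over both sexes, 0 of 30 tests in the 5 regions were called, 6 had an unadjusted p under 0.05 (20% of the tests, against 4.78% to 10.3% of all genes by region), and 0% of genes were called in every region. The smallest adjusted p was 0.336, for Enpp2 in the NAc (logFC -0.17, SE 0.05).

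The sex x treatment interaction was called for 0 of 37 tests of members in edgeR and 0 in DESeq2, and 0 of the 37 had an unadjusted p under 0.05, against 5.87% to 15.8% of all genes. Of all genes, 0.0059% were called for the Amy, and 0% for each of the 4 remaining regions. For Ttr in the Amy the interaction was 8.39 (SE 4.596, adjusted p = 0.373), and without both libraries whose sex genes go against the label it was 3.85 (SE 5.97, adjusted p = 0.765). With the 6 listed Amy libraries left out it was 7.83 (SE 2.14, adjusted p = 0.251), on levels of at most 8.51 CPM.

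No member was called for males against females as labelled in any region (0 of 30 tests), and 12 of the 30 had an unadjusted p under 0.05. In the Amy these were 6 of the members tested against 6.00% of all genes, in the DMS 3 against 27.8%, in the VTA 2 against 7.16%, in the NAc 1 against 16.6% and in the PFC 0 against 16.3%. Of all genes, the DMS had 2.64% called, the NAc 0.243%, the PFC 0.24%, the VTA 0.109% and the Amy 0.012%. In the Amy, Ttr averaged 623 ± 1024 CPM in libraries labelled female and 34.6 ± 116 CPM in those labelled male (SD, n = 12 each), with a logFC of -5.82 (SE 2.04, adjusted p = 0.601). Without both mismatched libraries it was -9.46 (SE 2.16, adjusted p = 0.129), that of Kl -1.29 (SE 0.50), that of Enpp2 -1.303 (SE 0.47), that of Clic6 -1.04 (SE 0.42), that of Sostdc1 -0.95 (SE 0.34) and that of Prlr -0.35 (SE 0.28), with 0 called and 0.0838% of genes called. With the listed libraries left out Ttr did not pass the filter, 0 of 5 members tested were called (0.0661% of genes), and the logFC of Kl went from -1.28 (SE 0.50) to 0.27 (SE 0.08, adjusted p = 0.277) and that of Enpp2 from -1.42 (SE 0.47) to 0.21 (SE 0.17).

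In the DMS, Folr1 and Otx2 varied together, also in libraries with almost no Ttr. The split that follows takes in FTL_285, which had 56.9 CPM of Ttr, and the correlations after it do not. Of the 24 DMS libraries the 12 with the most Folr1 (0.290 to 1.61 CPM, 10 of them male) had 0.381 to 2.98 CPM of Otx2, and the other 12 (0 to 0.183 CPM of Folr1, 10 of them female) had 0.0974 to 0.461 CPM. The summed level of 10 ependymal genes was 34.7 to 166 CPM in the former and 11.2 to 21.5 CPM in the latter, and 1.28% of genes likewise stood higher in every one of the former than in every one of the latter. Over the 23 DMS libraries other than FTL_285, Folr1 and Otx2 had r = 0.85 (permutation test, p = 1e-05, the smallest that 100000 permutations can give, adjusted p = 8e-05 over 8 relations chosen after the data were seen; rho = 0.79). It was 0.89 in the 12 males, 0.44 in the 11 females and 0.80 without the 2 libraries farthest from the median. Folr1 also went with Clic6 (r = 0.76, adjusted p = 0.00024, permutation test) and Sostdc1 (0.65, adjusted p = 0.000893), and Otx2 with Clic6 (0.72, adjusted p = 0.00024). Within the 12 males and the 11 females, r was 0.61 and 0.66 for Folr1 with Clic6, 0.63 and 0.45 for Folr1 with Sostdc1, and 0.79 and 0.23 for Otx2 with Clic6. Prlr had r = 0.64 with Folr1 and 0.69 with Otx2 over the 23, 0.68 and 0.72 in the males and -0.09 and 0.09 in the females. The r of Otx2 with Folr1, Clic6 and Prlr and of Folr1 with Prlr were lower in the females, a difference that was not tested. With Ttr, the r of Folr1 was 0.24 (permutation test, p = 0.284) and that of Otx2 0.49 (permutation test, adjusted p = 0.0198), which was 0.21 without the 2 libraries farthest from the median.

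FTL_301 had the most Otx2 (2.98 CPM), Prlr (6.55 CPM) and ependymal RNA (166 CPM) of the DMS, with 0.639 CPM of Ttr. FTL_285 had 56.9 CPM of Ttr with 73.0 CPM of ependymal RNA, and 4 DMS libraries that were not listed had more, 82.5 to 129 CPM. The 10 genes most like Folr1 over the 23 libraries were Cfap161, Lrrc43, Dnah5, Dnah10, Pi15, Casc1, Slc14a2, Vwa3b, Ccdc33 and Ak7 (r = 0.93 to 0.95), among which Cfap161, Dnah5, Dnah10 and Ak7 belong to motile cilia, and Otx2 was at rank 240 of 17598. The part of ependymal cells in the levels of Folr1 and Otx2 was not tested.

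Males had higher means than females in the DMS, 0.701 ± 0.436 against 0.293 ± 0.459 CPM of Folr1 and 1.15 ± 0.833 against 0.452 ± 0.512 CPM of Otx2 (SD, n = 12 each), with logFC of 1.22 (SE 0.54, adjusted p = 0.142) and 1.31 (SE 0.47, adjusted p = 0.074). Without FTL_285 and FTL_301 both were called, at 1.89 (SE 0.49, adjusted p = 0.0137) and 1.63 (SE 0.40, adjusted p = 0.011), where 3.69% of genes were called. Those libraries were chosen by levels of the same genes, so this adds no support. Of the 10 ependymal genes, Dynlrb2 (a dynein light chain) and Rarres2 (chemerin) were called higher in males with all 24 libraries, at logFC of 1.74 (SE 0.54) and 1.297 (SE 0.36), and 8 of 10 were without the 2 libraries. Of all genes tested, 2.64% were called in either direction with all 24 libraries and 3.69% without the 2 libraries. Of the 15 further plexus genes tested, 1 was called higher in males with all libraries, the sulfatase Sulf1 (logFC 0.52, SE 0.15), and 4 without them, adding Col8a2 (a collagen of basement membranes), Ecrg4 and Lbp. The median logFC of the 15 was 0.19, against 0.00 for all genes.

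**Figure D5:**
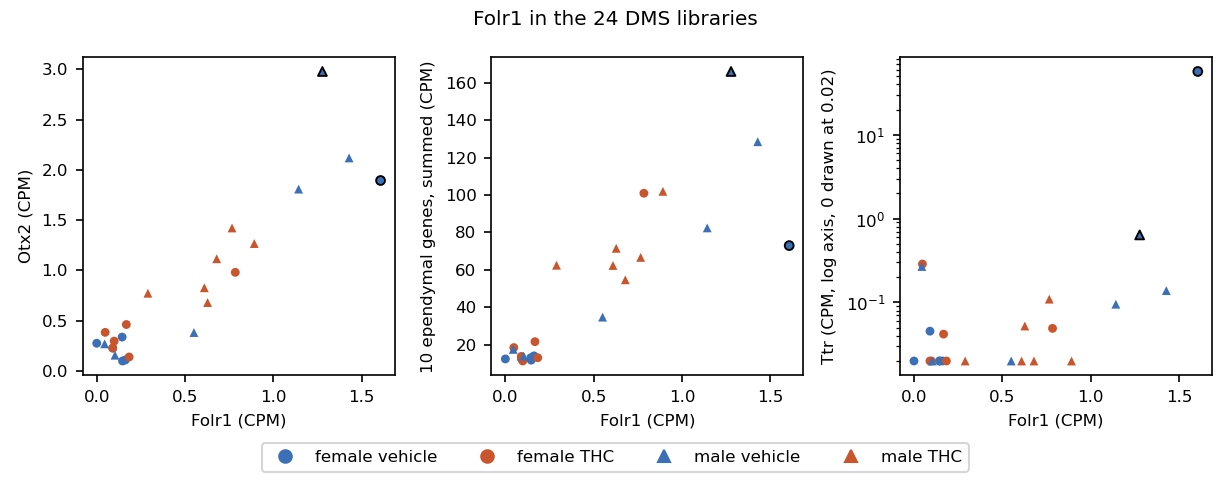
Otx2, the summed level of 10 ependymal genes, and Ttr (log axis, 0 drawn at 0.02) against Folr1 in the 24 DMS libraries, all in CPM, groups by colour and shape, with FTL_285 and FTL_301 ringed in black. Otx2 and ependymal RNA climb with Folr1 to 2.98 and 166 CPM, whereas Ttr exceeds 1 CPM in a single library, at 56.9 CPM.

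The 45 relations of 9 members with Ttr in 5 regions were adjusted together. They include those of the Amy, which all passed by Pearson's r and are not given because its libraries fall into separate clusters. Their small p lower the adjusted p of the rest, and an adjustment without them was not run. By Pearson's r, 5 passed in the DMS, those of Kl (r = 0.78, adjusted p = 0.00054), Sostdc1 (0.64, adjusted p = 0.00106), Kcnj13 (0.87, adjusted p = 0.013), Prlr (0.60, adjusted p = 0.013) and Otx2 (0.46, adjusted p = 0.0251), each by a permutation test. Of the relations given that passed, Otx2 in the DMS and Kcnj13 in the VTA were nearest the threshold. Without FTL_285 and FTL_301 these r were between 0.12 and 0.42, so the relations rest on those libraries. In the VTA, Kcnj13 had r = 0.54 with Ttr (permutation test, p = 0.00824, adjusted p = 0.0251; rho = 0.64, adjusted p = 0.0132) and r = 0.72 without FTL_374 and FTL_363. After centring on the median of each sex and treatment group, 0 relations of the VTA passed, and with CPM that used no TMM 3 did. Clic6 passed by rho alone (rho = 0.52, adjusted p = 0.0378; r = 0.46, adjusted p = 0.0646). No member of the PFC or NAc passed by r, and Prlr in the NAc had rho = -0.52 (adjusted p = 0.0359, permutation test) with r = -0.34 (adjusted p = 0.188).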

How the data were processed

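Punches of 5 regions gave 119 libraries of messenger RNA. The authors trimmed reads with cutadapt 2.9, aligned them to mm10 with STAR 2.7.3a and deposited RSEM 1.3.1 expected counts per gene symbol in 2 tables (48 PFC and DMS libraries, 71 NAc, Amy and VTA libraries), with 4.75% and 5.00% of values above 0 not whole. Counts were rounded to whole numbers here, every column was a library and 0 columns were unused, and neither table holds the authors' comparisons. Of the 55291 symbols 96.4% were found in GENCODE M21, which gave positions.

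CPM were computed with TMM in edgeR 4.0.16 (R 4.3.3), and log2 CPM with a prior count of 2. THC, sex, their interaction and regions were tested with edgeR's quasi-likelihood test after filterByExpr, with Benjamini-Hochberg adjustment over all genes tested. DESeq2 1.42.0 was an alternative, as were DESeq2 size factors, a fit with no filter, a joint fit of the 4 groups of each region, vehicle libraries only, leaving out each library in turn, other thresholds and other scalings. Correlations used 100000 permutations, or all orders within the 6 Amy libraries, with Benjamini-Hochberg adjustment over each family. The fits were tested on simulated counts with known changes. P-values measure the spread between the libraries of a group, which the labels give as separate samples.

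The members and all gene lists were chosen with earlier results of these data known. The text names the members, members of lists that were called, and the 10 genes most like Ttr. The genes most like Folr1 in the DMS, the 8 DMS relations, the correlations within the 6 and 18 Amy libraries and the fits that leave out listed or mismatched libraries were added after the data were seen. Depth of 3090978 to 77042124 counts sets the precision, and limits for a count of 0 cover counting error only.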

Additional observations from a re-analysis of the deposited data

Results flagged for a closer look

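In 43 of 200 sets of 1 gene in 1 group of 5 or 6 libraries, the highest library stood farther from the next than Dixon's 95% critical value allows. Chance gives about 1 in 20, or 10 of 200, for normal values, but a group otherwise at or near 0 passes with a single count and can give no low value, so the number and the direction carry no weight. Female vehicle DMS FTL_285 gave 8, with Ttr at 56.9 CPM, Kl 5.56, Folr1 1.61, Aqp1 1.52, Kcnj13 0.783, Otx2 1.89, Prlr 4.08 and Sostdc1 1.24 CPM. FTL_356, labelled a male THC library of the Amy, gave 6, with Ttr at 403 CPM, Kl 37.3, Folr1 7.49, Aqp1 5.34, Kcnj13 4.82 and Otx2 1.86 CPM. The female Amy groups, where 3 and 2 of 6 libraries were high, gave none, since this measure looks at a single library.

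In the VTA, male THC FTL_374 had Ttr at 2.83 CPM and Otx2 at 8.48 CPM, and FTL_377 had Sostdc1 at 2.40 CPM. Female THC FTL_365 had Kl at 6.80 CPM and Kcnj13 at 1.88 CPM, FTL_368 had Clic6 at 15.3 CPM and FTL_366 had Aqp1 at 1.01 CPM. Male vehicle FTL_371 had Clic6 at 13.0 CPM and Aqp1 at 0.904 CPM, FTL_373 had Folr1 at 0.500 CPM, and female vehicle FTL_358 had Sostdc1 at 1.77 CPM. In the NAc, female vehicle FTL_311 had Folr1 at 1.01 CPM, FTL_313 had Enpp2 at 139 CPM and Prlr at 12.3 CPM, and male vehicle FTL_325 had Ttr at 0.0531 CPM and Kcnj13 at 0.319 CPM.

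In the DMS, FTL_292 and FTL_293 of the female THC group had Folr1 at 0.784 CPM and Ttr at 0.287 CPM, male vehicle FTL_301 had Sostdc1 at 1.17 CPM and male THC FTL_304 had Kcnj13 at 0.105 CPM. In the PFC, Ttr was at 0.0461 CPM in FTL_263, 0.137 CPM in FTL_267, 0.0949 CPM in FTL_275 and 0.0453 CPM in FTL_280, Otx2 at 0.0486 CPM in FTL_262 and 0.0495 CPM in FTL_273, Folr1 at 0.314 CPM in FTL_265 and Kcnj13 at 0.335 CPM in FTL_276. Male vehicle Amy FTL_346 had Kcnj13 at 0.0227 CPM. The values of Ttr and Otx2 in the PFC, of Ttr in FTL_325, of Kcnj13 in FTL_304 and FTL_346 and of Aqp1 in FTL_371 rest on 1 to 3 counts.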

How the results depend on the processing

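Leaving out the listed libraries turned 7 differences between regions that had been called, to -0.37 (Enpp2) and -2.17 (Otx2) for the Amy against the DMS, -0.39 (Aqp1) and -0.34 (Kl) against the NAc, -0.72 (Aqp1) and -0.51 (Enpp2) against the PFC, and 0.41 (Aqp1) for the VTA against the Amy, of which -2.17, -0.72 and -0.51 were called. Clic6 for the Amy against the DMS, not called before, turned from 0.31 to -0.49 and was called. The libraries were chosen by these genes' own levels. It also gave 4 members called for the Amy against the NAc in place of 7, and 2 for males against females in the DMS in place of 0. With vehicle libraries only, 4 members were called for the Amy against the DMS in place of 7. Of the relations with Ttr, 0 passed in the DMS without FTL_285 and FTL_301 in place of 5, and in the VTA 3 passed with CPM that used no TMM and 0 after centring on each sex and treatment group, in place of 1. The libraries listed numbered 5 at a log2 CPM of at least 3 above the region median and 2 at no fewer than 8 members, in place of 8. The cause of these changes was not tested. Leaving out each library in turn gave 0 to 0 members called for THC in 95 fits over the DMS, NAc, Amy and VTA; it was not run for the PFC. No paired analysis was possible because the library numbers are unique and the groups share none. Depth limits the low levels, since 54 of 119 libraries had a Ttr count of 0.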
